A study of Mus musculus with 15 samples.

Results

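Thymic fibroblasts taken 1 day after irradiation were set against fibroblasts of untreated mice, in 10 of the 15 libraries of the series. The members were chosen by their labels alone: 5 libraries marked 1 day after sublethal irradiation and 5 marked untreated, compared over all genes that passed a filter on low counts. All mice were young wild-type (WT) males, the controls matched for age, and the irradiated mice had received 425 rad. The other 5 libraries came from mice killed 3 days after the same dose, and they entered the model and a last comparison. Cells from enzymatically digested thymi had been sorted by surface proteins, namely CD34 and PDGFRalpha (both carried by these fibroblasts) in the absence of CD45 (leukocytes) and CD31 (endothelium), and the gate in the labels also reads EpCAM+. Nothing in the labels ties the 5 replicates of a group to 5 separate animals. The p-values therefore reflect the spread among these libraries, and that spread may be technical.

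Fibroblasts of the thymus hold the organ's capsule and septa together and supply growth factors, guidance cues and matrix to the epithelium in which T cells mature. Ionizing radiation breaks DNA, stops division and kills thymocytes, and surviving stromal cells take part in rebuilding the organ. Cells adjust to stress through the making and destruction of proteins, through respiration and glycolysis, and through the receptors they carry for growth cues and for danger signals. Interferon, p53 and matrix genes make up well-known parts of the radiation response, so the description here turns to 86 lists of other pathways and gene families. Some lists named here share tested members with the interferon or p53 list, and the shared ones stay in the counts. The helicase list shares 2 interferon genes. Translation factors, ubiquitin-specific proteases, purine and pyrimidine synthesis and immunoglobulin adhesion genes share 1 each. With the p53 list 1 member each is shared by the amino acid deprivation, Eph, MAP kinase inhibitor and cullin lists. Other shared members are given with their lists.

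Levels are in CPM, which are the unique molecular identifiers (UMIs) of a gene per 1000000 UMIs of a library, with the library's total corrected by TMM. Changes are log2 ratios of day 1 to untreated ± SE, from edgeR's quasi-likelihood test, and levels are means ± SD with n = 5 where no library is given. A gene is called where its Benjamini-Hochberg adjusted p over all 10207 genes tested is below 0.05. By this rule 46.2% of genes were called: 2355 (23.1%) were higher at day 1 and 2362 (23.1%) were lower. These shares are the background for every count below. In 27.6% of genes the values of the 2 groups did not overlap. Called genes named for a list or as a largest change were picked with groups that do not overlap. Their separation follows from that choice and adds nothing to the call. Each list is given by its counts of called members, with no test of the list as a whole. Because these are sorted but bulk samples, fewer cells of a type and less RNA per cell cannot be told apart.

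Library totals ran from 740169 to 2661621 UMIs in the 10 libraries. Day 1 replicate 1 was the shallowest, and on the second principal component it lay at 65.97 while the other 4 day 1 libraries lay between -27.3 and -23.98. Scaling to plain library totals moved the median log2 change of all genes from -0.02 to -0.29 and the calls to 1498 higher and 3652 lower, so changes are relative to that median, and the counts with library totals are printed for each list named here in which the direction with more called members then differed. Changes also followed transcript composition: in 5 bins of genes ordered by GC content, from the lowest to the highest, the median log2 change ran from -0.42 to 0.33, and from the shortest to the longest transcripts it ran from 0.26 to -0.37. Across 10080 genes, which are not independent replicates, Spearman's rho was 0.35 with GC content and -0.29 with length. In day 1 replicate 1 the medians ran from -1.17 to 0.74 over the GC bins, and in the other day 1 libraries from between -0.38 and -0.19 to between 0.17 and 0.24. A fit with offsets for GC content and length brought the medians of these bins to between -0.00 and 0.05 and called 2340 genes higher and 2029 lower. Its counts are printed for each list named here in which that direction differed with these offsets, and for some others.

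**Figure D1:**
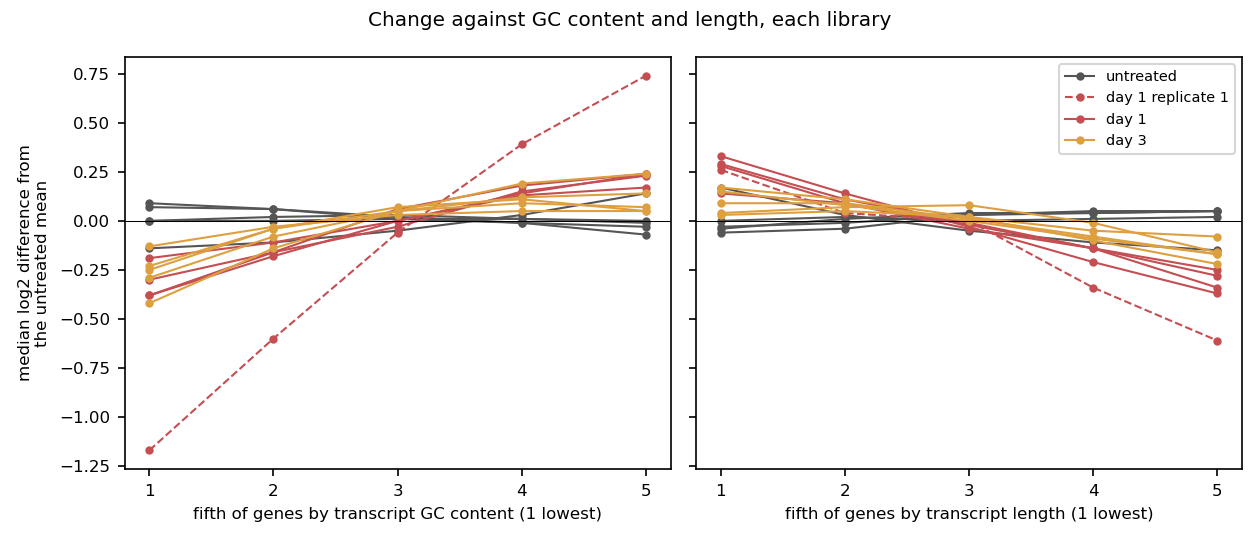
Median log2 difference of each library from the untreated mean, over 5 bins of the 10080 genes ordered by GC content (left) or length (right) of the longest transcript. Each line is 1 library, and the dashed line is day 1 replicate 1, which runs from -1.17 to 0.74 over the GC bins.

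The markers fixed for other cells were also counted, since they moved with the groups. All 10 mesothelial markers were higher, their summed level going from 138 to 504 CPM in untreated libraries to 535 to 3321 CPM at day 1. Of 14 tested macrophage and dendritic cell markers 11 were higher and none lower, with sums of 106 to 508 CPM untreated and 670 to 1438 CPM at day 1. All 5 tested thymic epithelial markers were higher (38.3 to 102 CPM untreated, 131 to 1185 CPM at day 1), and Krt8, Krt18 and Krt19 among them are also in the mesothelial list. Epcam was at 11 UMIs over the 5 untreated and 10 over the 5 day 1 libraries, and Ptprc, which encodes CD45, was at 35 and 38. Cdh5, a defining endothelial gene, went from 5 to 35 UMIs, and Pecam1, which encodes CD31, from 35 to 59. Fibroblast markers were lower in 10 of 12 and higher in 1, and their sum stood at 61408 to 67754 CPM untreated against 17283 to 32358 CPM at day 1. The gate's own genes were among them, Cd34 at 1474 to 1700 CPM untreated and 335 to 641 CPM at day 1, and Pdgfra at 263 to 360 and 80.3 to 158 CPM. Endothelial markers were higher in 2 of 4 and lower in 1, adipocyte markers in 1 of 3 and 0, and Schwann cell markers in 1 of 3 and 2, while none of the 6 granulocyte and 7 thymocyte and T cell markers in the table passed the filter on low counts. The granulocyte sum was still 2.55 to 5.04 CPM untreated and 14.2 to 57.1 CPM at day 1. For thymocyte and T cell markers it was 3.4 to 49.3 CPM untreated and 3.23 to 9.9 CPM at day 1. What part these shifts have in the lists below was not tested.

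Most proteasome and glycolysis genes were higher. The 26S proteasome, which degrades ubiquitin-tagged proteins, was higher in 26 of its 39 constitutive subunits and assembly factors and lower in 1 (24 and 1 with GC and length offsets, 11 and 1 with library totals). Of 18 glycolysis genes 13 were higher and none lower (12 with offsets, 9 with totals). These are 66.7% and 72.2% of the members, beside 23.1% of all genes, and the median log2 changes were 0.51 and 0.71.

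Upstream sequence is shown for 4 genes of the glycolysis, ribosome assembly and proteasome lists, chosen because each holds a match, to show where it lies. Each run is the 250 bases before the RefSeq start site on GRCm38.p6, written in the direction of the gene, with a match to the named motif on either strand in capitals. Slc2a1 and Pkm carry ACGTG, the core of the hypoxia-inducible factor site and of one kind of E-box, Psmb6 carries TGACNNNGC, the core of the antioxidant response element, and Nop2 carries CACGTG, the E-box bound by MYC.
Slc2a1, chr4:119108495-119108744, plus strand: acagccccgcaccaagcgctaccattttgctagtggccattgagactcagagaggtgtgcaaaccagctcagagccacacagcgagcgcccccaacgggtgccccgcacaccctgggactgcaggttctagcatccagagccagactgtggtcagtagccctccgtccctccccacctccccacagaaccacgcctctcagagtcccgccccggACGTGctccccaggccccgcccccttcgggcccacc
Pkm, second of its 2 listed starts, chr9:59656977-59657226, plus strand: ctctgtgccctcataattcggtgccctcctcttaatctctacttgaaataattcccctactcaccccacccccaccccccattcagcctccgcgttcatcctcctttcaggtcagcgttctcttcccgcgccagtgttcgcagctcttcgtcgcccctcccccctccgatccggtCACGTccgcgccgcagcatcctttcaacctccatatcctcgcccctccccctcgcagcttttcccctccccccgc
Psmb6, chr11:70525107-70525356, plus strand: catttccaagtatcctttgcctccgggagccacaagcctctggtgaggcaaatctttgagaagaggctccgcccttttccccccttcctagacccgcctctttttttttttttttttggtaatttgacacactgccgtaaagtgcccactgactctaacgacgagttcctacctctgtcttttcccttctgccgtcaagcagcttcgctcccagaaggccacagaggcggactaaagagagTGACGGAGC
Nop2, chr6:125131633-125131882, plus strand: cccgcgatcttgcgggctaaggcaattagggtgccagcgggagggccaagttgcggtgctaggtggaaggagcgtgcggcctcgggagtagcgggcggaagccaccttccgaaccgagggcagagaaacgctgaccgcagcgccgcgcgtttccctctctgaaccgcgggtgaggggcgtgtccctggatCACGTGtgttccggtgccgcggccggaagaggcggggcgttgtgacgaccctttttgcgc

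In windows from 250 bases before to 50 after the start, a gene being counted if any of its starts had a match, ACGTG was found in 11 of 18 glycolysis genes (61.1%), beside 30.1% of the 8177 tested genes with a window. CACGTG, whose matches all contain ACGTG, was in 13 of 44 ribosome assembly genes (29.5%), beside 12.2%. TGACNNNGC was in 5 of 32 proteasome genes (15.6%), close to the 17.1% of tested genes. These are 3 of 54 pairs of motif and list that were searched after the values were known, so the shares are a description and nothing about a factor follows from them. Of the other windows read in the same way, those of Gpi1, Pfkl and the first start of Pkm held no ACGTG in the 250 bases, that of Psmd4 no TGACNNNGC and that of Ppan no CACGTG, although all of these genes rose.

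Psmb6 encodes the caspase-like catalytic subunit of the proteasome core. It stood at 237, 202, 204, 219 and 220 CPM in the untreated libraries. Psmb6 at day 1 was at 499, 401, 392, 482 and 451 CPM. All 5 day 1 libraries lay above all untreated ones (log2 change 1.04 ± 0.13, adjusted p = 9.6e-07). Psmd4, a receptor for ubiquitin chains in the regulatory cap, went from 138 ± 18.9 to 256 ± 47.8 CPM (SD, n = 5; log2 change 0.89 ± 0.15, adjusted p = 5.2e-05), and the core subunit Psmb2 from 77.2 ± 18.6 to 154 ± 38.5 CPM (log2 change 1.02 ± 0.18, adjusted p = 0.0001). The single lower member was Psmg2, an assembly chaperone, at a log2 change -0.45 ± 0.17, adjusted p = 0.037, and that call was lost in 10 alternative fits. Psmd1, a scaffold of the cap, was not called, at 128 ± 30.9 CPM untreated and 144 ± 15.8 CPM at day 1.

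Slc2a1 encodes GLUT1, the glucose transporter that feeds glycolysis. Its level was 12.8, 31.1, 29.5, 21.8 and 37.5 CPM in the untreated libraries. Slc2a1 at day 1 was at 159, 81.1, 101, 124 and 72.2 CPM. The groups did not overlap (log2 change 1.96 ± 0.23, adjusted p = 5.7e-07). Pfkl, the liver-type phosphofructokinase that commits glucose to the pathway, rose from 7.99 ± 2.72 to 31.6 ± 10.4 CPM (log2 change 1.96 ± 0.26, adjusted p = 3.1e-06). Pkm, which makes pyruvate in the last step, was at 282, 315, 284, 295 and 312 CPM in the untreated libraries. Pkm at day 1 was at 832, 622, 533, 743 and 588 CPM, again without overlap (log2 change 1.15 ± 0.15, adjusted p = 3.2e-06). Gpi1, the second enzyme of the pathway, rose from 130.1 ± 9.04 to 262 ± 62.5 CPM (log2 change 1.00 ± 0.15, adjusted p = 1.6e-05). Tpi1, the triose isomerase, was not called and its groups overlapped, at 132 to 201 CPM untreated and 146 to 257 CPM at day 1. A wider list of 17 hypoxia-inducible genes showed 4 higher and 3 lower (3 and 6 with totals), and the mitophagy receptor Bnip3l was among the lower ones (log2 change -1.54 ± 0.20, adjusted p = 2.6e-06).

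Gapdh, also a glycolytic enzyme, behaved unlike the others. It was at 5.1, 7.27, 5.04, 3.69 and 4.26 CPM in the untreated libraries. Gapdh at day 1 was at 7.87, 492, 9.69, 10.4 and 465 CPM. Only day 1 replicates 2 and 5 were high, and the other 3 lay just above the untreated range, a pattern that averages into a log2 change 5.30 ± 1.23, adjusted p = 0.0037. The gene has many near-identical copies in the mouse genome, and how reads were divided among them was not examined, so its counts are uncertain. The call was lost in the limma voom fit with quality weights (log2 change 3.91, adjusted p = 0.059).

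**Figure D2:**
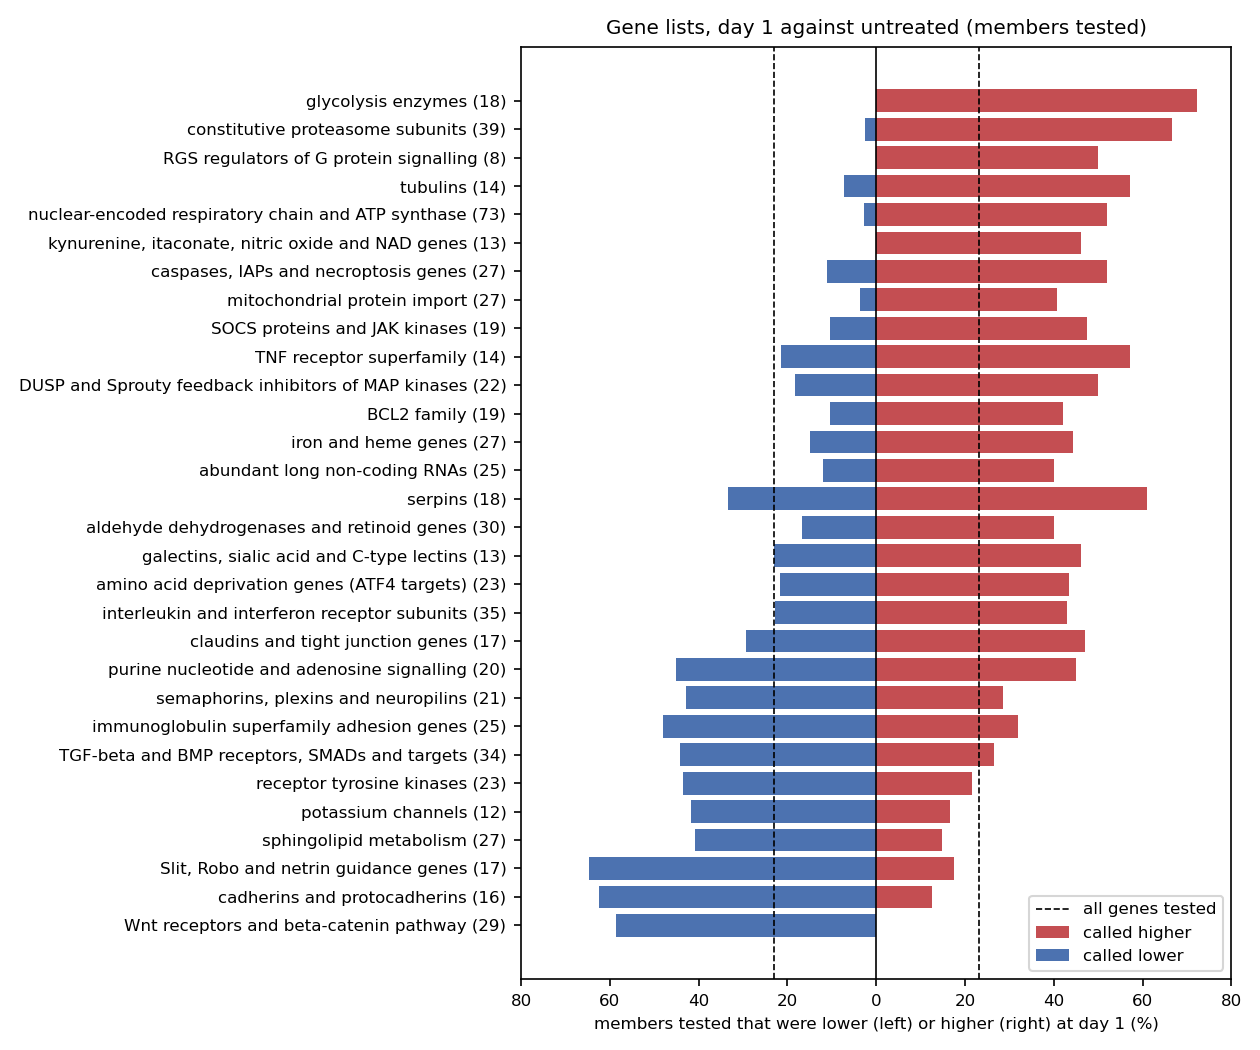
Share of tested members called higher (right) or lower (left) at day 1 for the 30 of 86 lists with at least 40% of members called one way, ordered by the difference, with the number tested in brackets. Dashed lines mark the 23.1% of all genes in each direction; 20 lists had more higher and 9 more lower members, and purine nucleotide signalling was even at 9 and 9.

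Nuclear genes of the respiratory chain were higher in part, by small amounts. Of 73 subunits of the respiratory chain and ATP synthase 38 were higher and 2 lower, with a median log2 change of 0.41. With offsets for GC content and length the counts were 21 and 4, and with totals 18 and 6. The transcripts are short, with a median of 809 bases beside 3001 for all genes. Atp5g1, a subunit of the membrane rotor of ATP synthase, was at 149.7, 128, 123, 113 and 129 CPM in the untreated libraries. Atp5g1 at day 1 was at 346, 262, 259, 334 and 289 CPM, with all day 1 libraries above (log2 change 1.21 ± 0.14, adjusted p = 5.5e-07). Ndufb7 of complex I went from 159 ± 7.3 to 335 ± 57.2 CPM (log2 change 1.07 ± 0.14, adjusted p = 2.7e-06) and Cox5b of complex IV from 267 ± 56.9 to 649 ± 222 CPM (log2 change 1.28 ± 0.19, adjusted p = 1.7e-05). Cox7a2l, which helps complexes III and IV associate, fell from 265 ± 30.5 to 186 ± 37.6 CPM (log2 change -0.50 ± 0.15, adjusted p = 0.0074). Atp5b, the catalytic ATP synthase subunit, was at 468 ± 35.5 CPM untreated and 472 ± 40.6 CPM at day 1 and was not called.

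Mitochondrial ribosomal protein genes were higher in 24 of 63 and lower in 2, and mitochondrial import genes in 11 of 27 and 1. Mrpl54, of the large mitochondrial ribosomal subunit, was higher in every day 1 library than in any untreated one, going from 125 to 152 CPM untreated to 257 to 375 CPM at day 1 (log2 change 1.23 ± 0.13, adjusted p = 2.2e-07). Hspe1, the cochaperonin that folds imported proteins, rose from 366 ± 32.3 to 1011 ± 365 CPM (log2 change 1.46 ± 0.19, adjusted p = 1.7e-06). In contrast, citric acid cycle enzymes were divided, with 5 of 23 higher and 7 lower (4 and 4 with offsets), and fatty acid oxidation enzymes leaned down, with 4 of 28 higher and 8 lower. With totals the median of the import list was -0.02 and that of the mitochondrial ribosomal list 0.04.

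Ribosomal proteins of the cytosol gave no direction that held. In the fit reported here 19 of 73 were higher and 4 lower, yet with GC and length offsets 10 were higher and 14 lower, and with library totals 7 and 12. Rps19 and Rpl38 were higher (log2 change 0.91 ± 0.14, adjusted p = 1.3e-05 and log2 change 1.31 ± 0.24, adjusted p = 0.00015), and Rpl22, which binds RNA and has a known role in T cell development, was lower, at 79.1, 86.5, 88.5, 73.6 and 91.1 CPM in the untreated libraries. Rpl22 at day 1 was at 39.4, 37.5, 38.3, 43.5 and 34.8 CPM. Rpl22 at day 1 was below every untreated library (log2 change -1.11 ± 0.13, adjusted p = 5.5e-07). Many of these genes have near-identical processed copies, so their counts are uncertain.

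Factors that assemble ribosomes in the nucleolus were higher in 15 of 54 and lower in 4, and in 22 and 4 with GC and length offsets, but in 5 and 6 with library totals. Nop2, an rRNA methyltransferase, rose from 24.8 ± 3.7 to 58 ± 16.7 CPM (log2 change 1.19 ± 0.18, adjusted p = 1.9e-05) and Ppan, a large subunit assembly factor, from 30.2 ± 5.87 to 70.2 ± 15.3 CPM (log2 change 1.20 ± 0.20, adjusted p = 3.9e-05). Aminoacyl-tRNA synthetases were higher in 7 of 22 and lower in none, though 4 and 5 with totals, with Kars, which charges lysine tRNA, at 69.1 ± 10.5 CPM untreated and 140.3 ± 29.9 CPM at day 1 (log2 change 1.00 ± 0.15, adjusted p = 2e-05). Odc1, the rate-limiting enzyme of polyamine synthesis, stood at 39.98, 52.1, 36.3, 34.3 and 41.3 CPM in the untreated libraries. Odc1 at day 1 was at 257, 137, 151, 180.1 and 162 CPM. Its rise (log2 change 2.10 ± 0.18, adjusted p = 7.7e-09) had no overlap, and Srm, which makes spermidine, followed from 146 ± 16.3 to 265 ± 49 CPM (log2 change 0.86 ± 0.14, adjusted p = 3.9e-05). They were the only 2 of 11 polyamine genes called, beside 2 higher and 3 lower with totals. In purine and pyrimidine synthesis 7 of 23 were higher and 3 lower, among them Impdh1, which leads to GTP, with a log2 change 1.23 ± 0.18, adjusted p = 9.5e-06, and the nucleoside diphosphate kinase Nme2, with a log2 change 0.97 ± 0.16, adjusted p = 3.9e-05.

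The amino acid deprivation list, made of targets of the transcription factor ATF4, had 10 of 23 members higher and 5 lower (7 and 5 with totals). Slc3a2, the heavy chain of several amino acid exchangers, rose from 158 ± 22.4 to 477 ± 98.8 CPM (log2 change 1.59 ± 0.16, adjusted p = 8.6e-08), Atf4 itself from 571 ± 57.1 to 1015 ± 150.2 CPM (log2 change 0.83 ± 0.14, adjusted p = 3.9e-05), and Ddit4, an inhibitor of the growth kinase mTORC1, from 9.36 to 29.1 CPM untreated to 56.4 to 342 CPM at day 1 (log2 change 3.23 ± 0.50, adjusted p = 0.00012). Atf5, a related factor, went the other way, from 638 ± 95.9 to 348 ± 52 CPM (log2 change -0.87 ± 0.14, adjusted p = 4.5e-05).

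In the secretory pathway the direction differed between genes. Of 38 translocon and N-glycosylation genes 13 were higher and 9 lower, but 5 and 13 with library totals. The channel subunit Sec61b rose from 278 ± 101 to 746 ± 278 CPM (log2 change 1.42 ± 0.24, adjusted p = 8.6e-05) and its partner Ssr4 from 273 ± 32.4 to 578 ± 83.6 CPM (log2 change 1.08 ± 0.14, adjusted p = 2.6e-06), while Stt3b, the catalytic subunit that attaches glycans, fell from 122 ± 22 to 56 ± 18.2 CPM (log2 change -1.09 ± 0.19, adjusted p = 7e-05). Among 39 vesicle coat genes 7 were higher and 8 lower, and 11 and 5 with offsets. The coat subunit Cope rose (log2 change 0.95 ± 0.14, adjusted p = 1.8e-05), and the cargo receptor Tmed10 fell from 122 to 141 CPM untreated to 17.3 to 65.6 CPM at day 1 (log2 change -1.42 ± 0.19, adjusted p = 3.6e-06). In the lysosome the growth factor precursor Grn rose from 586 ± 37 to 1369 ± 207 CPM (log2 change 1.23 ± 0.14, adjusted p = 4.1e-07), and Ctsk, a collagen-degrading cathepsin, fell from 481 ± 54.5 to 209.6 ± 63.5 CPM (log2 change -1.19 ± 0.18, adjusted p = 1.7e-05), in a list with 7 of 22 higher and 4 lower (5 and 9 with totals). Sqstm1, the autophagy receptor p62, rose (log2 change 0.72 ± 0.15, adjusted p = 0.00049) in a list with 6 of 35 higher and 7 lower (5 and 3 with offsets).

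Genes of the Wnt and Hedgehog pathways, which carry developmental cues, were lower in part, and none was higher in the fit reported here. Of 29 Wnt receptors and beta-catenin pathway genes 17, or 58.6%, were lower and none higher (14 and 2 with GC and length offsets, 20 and 0 with totals), with a median log2 change of -0.65. Fzd2, a Frizzled receptor for Wnt proteins, was at 42.5, 56.6, 56.8, 57.4 and 57.9 CPM in the untreated libraries. Fzd2 at day 1 was at 12.6, 14, 12.5, 10.9 and 14.4 CPM. The day 1 libraries all lay below the lowest untreated one (log2 change -2.08 ± 0.17, adjusted p = 3.2e-09). Lgr5, the receptor for R-spondins that amplifies Wnt signals, was at 43.4, 36, 39.6, 39.97 and 28.9 CPM in the untreated libraries. Lgr5 at day 1 was at 7.87, 9.6, 13.7, 5.44 and 7.87 CPM (log2 change -2.02 ± 0.21, adjusted p = 1.6e-07). Nkd2, an inhibitor of the pathway, fell from 93.9 ± 15.5 to 31.7 ± 3.38 CPM (log2 change -1.57 ± 0.17, adjusted p = 1.5e-07). Tcf4, counted among the 17 lower genes, encodes an E protein transcription factor and not the beta-catenin partner of similar name. It fell from 68.6 ± 13.4 to 19.7 ± 8.89 CPM (log2 change -1.80 ± 0.27, adjusted p = 2.4e-05). Ctnnb1, which encodes beta-catenin itself, was not called (adjusted p = 0.062), with day 1 replicate 1 at 70.9 CPM and the others at 182 to 214 CPM.

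Hedgehog genes were lower in 5 of 13 and higher in none, and in 7 with GC and length offsets. Gas1, a coreceptor that helps cells sense Hedgehog ligand, stood at 1620, 1291, 1055, 1039 and 1043 CPM in the untreated libraries. Gas1 at day 1 was at 175, 289, 368, 284 and 331 CPM. It was the most strongly lowered of the 3 coreceptor genes, without overlap (log2 change -2.05 ± 0.18, adjusted p = 9.1e-09), with Boc at a log2 change -1.11 ± 0.14, adjusted p = 1.3e-06 and Cdon at a log2 change -0.88 ± 0.19, adjusted p = 0.00083. Evc, which acts at the base of the primary cilium, fell from 45.7 ± 5.59 to 28 ± 2.17 CPM (log2 change -0.70 ± 0.14, adjusted p = 0.00042). In the list of 50 primary cilium genes 4 were higher and 11 lower.

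TGF-beta and BMP receptors, SMADs and targets were lower in 15 of 34 and higher in 9 (12 and 10 with offsets). Bmpr2, the type II BMP receptor, was at 40.8, 46.5, 44.2, 44.3 and 40.4 CPM in the untreated libraries. Bmpr2 at day 1 was at 14.2, 12.7, 7.67, 9.4 and 22.3 CPM, a clear separation (log2 change -1.77 ± 0.21, adjusted p = 7.5e-07). The type I receptor Acvrl1 fell from 62.5 ± 2.18 to 27.6 ± 4.87 CPM (log2 change -1.20 ± 0.15, adjusted p = 1.7e-06) and the signal carrier Smad5 from 52.1 ± 9.48 to 23.5 ± 4.47 CPM (log2 change -1.11 ± 0.16, adjusted p = 9.1e-06). Smad7, which inhibits the pathway, rose from 111 ± 28.6 to 266 ± 44.8 CPM (log2 change 1.26 ± 0.18, adjusted p = 6.5e-06).

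Among 23 receptor tyrosine kinases 10 were lower and 5 higher (8 and 7 with offsets). Ntrk2, the receptor for brain-derived neurotrophic factor, was at 131, 204, 173, 138 and 208 CPM in the untreated libraries. Ntrk2 at day 1 was at 20.5, 17.4, 23.4, 10.4 and 25.6 CPM. Every day 1 library lay far below the untreated range (log2 change -3.15 ± 0.21, adjusted p = 2.2e-10). The collagen receptor Ddr2 fell from 282 ± 62.4 to 91.3 ± 21.8 CPM (log2 change -1.62 ± 0.17, adjusted p = 1.6e-07) and the angiopoietin receptor Tek from 44.6 ± 15.8 to 15.7 ± 2.65 CPM (adjusted p = 1e-05). Pdgfrb, a PDGF receptor of fibroblasts and pericytes, rose from 179 ± 12.6 to 351 ± 96.6 CPM (log2 change 0.96 ± 0.19, adjusted p = 0.00035). Egfr was at 74.1 ± 18.9 CPM untreated and 74.5 ± 21.2 CPM at day 1 and was not called. In the list of 9 tested pericyte and smooth muscle markers 3 were higher and 1 lower.

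The families of guidance genes first known from growing axons differed from one another. In the Slit, Robo and netrin list 11 of 17 were lower (64.7%) and 3 higher, and 7 and 3 with GC and length offsets. Rgmb, a BMP coreceptor and neogenin ligand, fell from 38.9 ± 7.62 to 10.2 ± 3.94 CPM (log2 change -1.87 ± 0.20, adjusted p = 2.6e-07) and the secreted cue Ntn1 from 61.4 ± 9.56 to 20.8 ± 9.62 CPM (log2 change -1.51 ± 0.21, adjusted p = 7.2e-06). Unc5b, a receptor for Ntn1, rose from 23 to 34.9 CPM untreated to 38.1 to 82 CPM at day 1 (log2 change 1.12 ± 0.20, adjusted p = 8.3e-05). Semaphorins, plexins and neuropilins had 9 of 21 lower and 6 higher (9 and 8 with offsets). Sema3c, a secreted semaphorin, was at 195, 191, 291, 189 and 174 CPM in the untreated libraries. Sema3c at day 1 was at 23.6, 55.4, 87.2, 27.7 and 39.4 CPM (log2 change -2.10 ± 0.27, adjusted p = 3.7e-06), and its receptor Nrp2 fell from 53.8 ± 12.2 to 17.8 ± 11.2 CPM (log2 change -1.57 ± 0.27, adjusted p = 7.7e-05). Sema4a, a membrane semaphorin with roles in immune cells, rose from 3.69 to 11.9 CPM untreated to 20.5 to 75.1 CPM at day 1 (log2 change 2.53 ± 0.31, adjusted p = 2e-06). In the Eph family, 13 tested genes with 3 higher and 2 lower (3 and 3 with totals), Epha3 fell (log2 change -2.79 ± 0.31, adjusted p = 5.4e-07) and Epha2 rose from 2.02 to 9.36 CPM untreated to 11.8 to 175 CPM at day 1 (log2 change 3.77 ± 0.67, adjusted p = 0.00043). The mesothelial markers given above rose in the same libraries, and their part in the Epha2 values was not tested.

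Among adhesion genes the cadherin list was mostly lower. Cadherins and protocadherins were lower in 10 of 16, or 62.5%, and higher in 2 (7 and 3 with offsets), and their transcripts are long, with a median of 6004 bases. The giant cadherin Dchs1 fell from 110 ± 8.11 to 42.2 ± 13.2 CPM (log2 change -1.42 ± 0.19, adjusted p = 4.8e-06). Of 25 immunoglobulin superfamily adhesion genes 12 were lower and 8 higher. Lsamp, a membrane-anchored adhesion protein, was at 34, 30.7, 33.5, 36.3 and 34 CPM in the untreated libraries. Lsamp at day 1 was at 0, 3.49, 2.83, 1.98 and 4.59 CPM. It was at 0 or at a few CPM in all 5 day 1 libraries (log2 change -3.52 ± 0.31, adjusted p = 1.1e-08), and its relative Opcml fell from 22.3 ± 6.68 to 2.94 ± 3.08 CPM (log2 change -2.83 ± 0.38, adjusted p = 3.9e-06). Nectin2, a junction protein and immune ligand, rose from 21.8 ± 6.89 to 81 ± 34.5 CPM (log2 change 1.94 ± 0.28, adjusted p = 1.3e-05).

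Cell surface proteoglycans, which hold growth factors on heparan sulfate, split evenly with 3 of 8 higher and 3 lower (3 and 4 with totals). Gpc6, a glypican, was at 51.9, 45.7, 42.8, 53.4 and 40.9 CPM in the untreated libraries. Gpc6 at day 1 was at 1.57, 4.36, 3.23, 1.48 and 8.53 CPM (log2 change -3.56 ± 0.27, adjusted p = 1.2e-09). Sdc3, a syndecan, moved the other way, at 46.8, 24.6, 36.7, 37.6 and 30.2 CPM in the untreated libraries. Sdc3 at day 1 was at 378, 228, 243, 256 and 252 CPM, with day 1 replicate 1 the highest (log2 change 2.95 ± 0.20, adjusted p = 2.6e-10). Sdc2 fell from 134 ± 13 to 54 ± 14.9 CPM (log2 change -1.29 ± 0.16, adjusted p = 1.9e-06). Genes that synthesize heparan and chondroitin sulfate were lower in 12 of 33 and higher in 4, among them the sulfotransferase Chst1 (log2 change -1.96 ± 0.24, adjusted p = 1.3e-06) and the epimerase Glce (log2 change -1.55 ± 0.22, adjusted p = 9.1e-06). Ext1, which extends the chain, was not called, at 242 ± 55 CPM untreated and 296 ± 60.9 CPM at day 1.

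**Figure D3:**
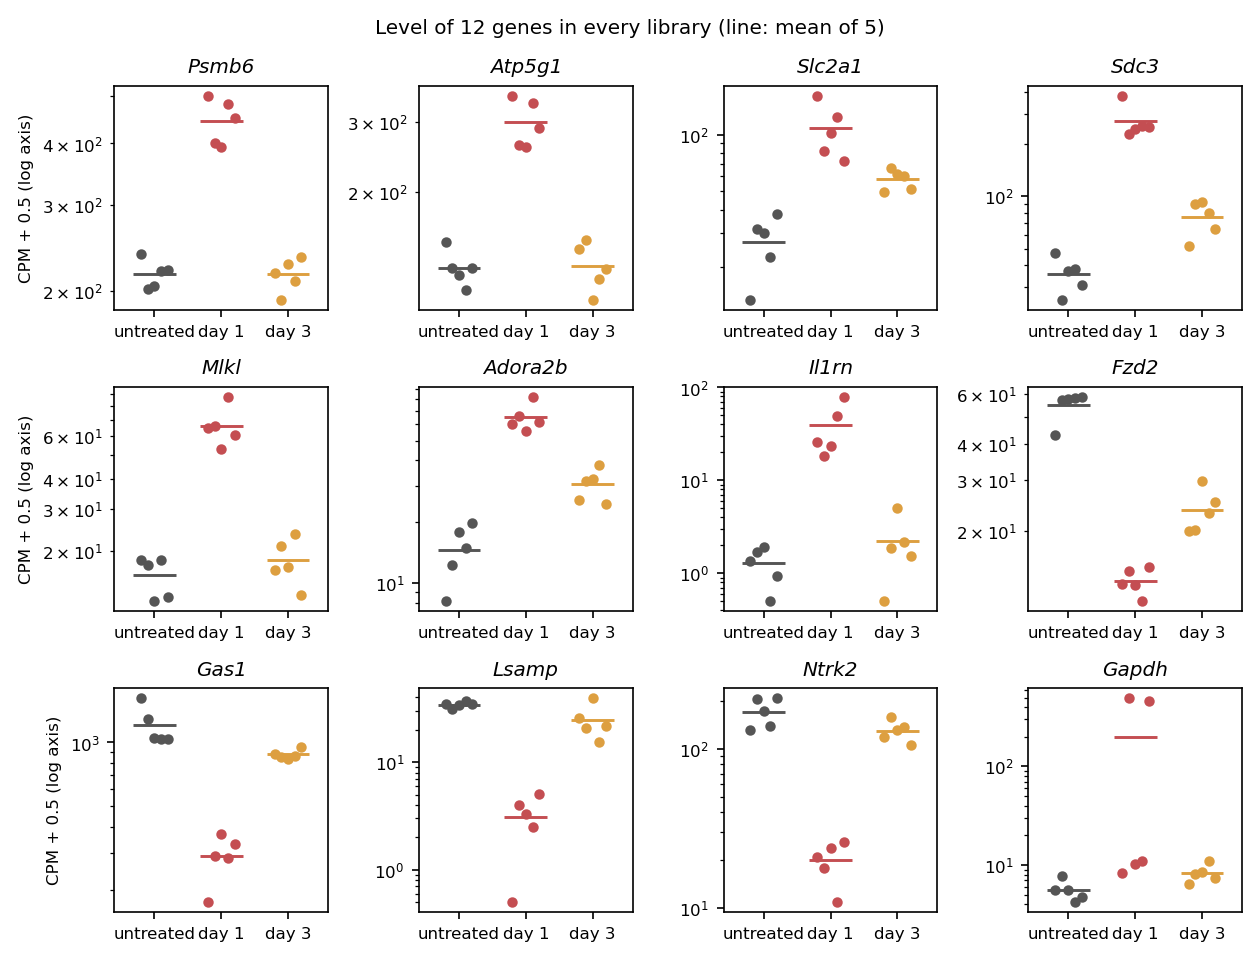
CPM plus 0.5 on log axes for 12 genes in each of the 15 libraries, with the mean of 5 as a line; each panel has its own axis. The day 1 points lie outside the untreated range in each panel, and for Gapdh only 2 day 1 libraries, at 465 and 492 CPM, are high.

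Genes that relay or restrain cytokine and other signals were higher in part. In the list of SOCS proteins, JAK kinases, PIAS factors and their phosphatases 9 of 19 were higher and 2 lower, and 11 and 0 with GC and length offsets. Jak2, a kinase of many cytokine receptors, was at 27.2, 57.8, 59, 37 and 51.1 CPM in the untreated libraries. Jak2 at day 1 was at 83.5, 127, 95.2, 125 and 117 CPM (log2 change 1.23 ± 0.19, adjusted p = 2e-05). Pias4, a SUMO ligase that restrains STAT factors, went from 20.7 ± 2.06 to 48.8 ± 17.9 CPM, with day 1 replicate 1 highest at 80.3 CPM (log2 change 1.17 ± 0.19, adjusted p = 2.8e-05). Phosphatases and Sprouty proteins that switch off MAP kinases were higher in 11 of 22 and lower in 4, but 6 and 6 with totals, and Dusp10, which acts on JNK and p38, rose from 11.3 ± 1.84 to 43.4 ± 12.9 CPM (log2 change 1.89 ± 0.21, adjusted p = 2.6e-07). Of 8 RGS regulators, which shorten G protein signals, 4 were higher and none lower, with Rgs16 at 128 ± 25.4 CPM untreated and 367 ± 115 CPM at day 1 (log2 change 1.51 ± 0.21, adjusted p = 5.8e-06).

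Of 27 Toll-like and NOD-like receptor signalling genes, which include kinases downstream of the sensors, 10 were higher and 3 lower. The genes named here are among the higher ones, and kinases were among the lower ones. Nod1, which binds peptidoglycan fragments in the cytosol, was at 36.6, 27.1, 39.6, 35.3 and 26.8 CPM in the untreated libraries. Nod1 at day 1 was at 75.6, 79.8, 72.7, 69.3 and 92.5 CPM, with no overlap (log2 change 1.24 ± 0.15, adjusted p = 8.1e-07). Lbp and Cd14, which hand lipopolysaccharide to TLR4, rose from 376 ± 47.1 to 842 ± 276 CPM (log2 change 1.16 ± 0.19, adjusted p = 4.5e-05) and from 11.6 ± 5.97 to 33.7 ± 5.98 CPM (log2 change 1.58 ± 0.27, adjusted p = 6.3e-05). Macrophages also make Cd14, and the macrophage markers given above moved in the same libraries; their part in this value was not tested.

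Interleukin and interferon receptor genes were higher in 15 of 35 and lower in 8. Il1rn, the secreted antagonist of the IL-1 receptor, was at 0.851, 1.21, 1.44, 0 and 0.426 CPM in the untreated libraries. Il1rn at day 1 was at 25.2, 17.9, 23, 49 and 78.1 CPM. The untreated libraries together held 9 UMIs of it and the day 1 libraries 332 (log2 change 5.57 ± 0.65, adjusted p = 3.2e-06). The macrophage and mesothelial markers given above also rose at day 1, and their part in the Il1rn values was not tested. Crlf2, a subunit of the receptor for thymic stromal lymphopoietin, rose from 58.7 ± 7.02 to 111 ± 12.2 CPM (log2 change 0.93 ± 0.13, adjusted p = 9.1e-06). Both chains of the interferon gamma receptor were lower: Ifngr1 was at 127, 155, 118, 165 and 160 CPM in the untreated libraries. Ifngr1 at day 1 was at 39.4, 41.9, 53.7, 65.8 and 64.3 CPM (log2 change -1.44 ± 0.16, adjusted p = 3.5e-07), and Ifngr2 changed less (log2 change -0.43 ± 0.13, adjusted p = 0.0092) and was not called with GC and length offsets (adjusted p = 0.08). TNF receptor genes were higher in 8 of 14 and lower in 3, and 3 of the 14 are p53 targets in the list set aside. Tnfrsf23, a decoy receptor for the death ligand TRAIL in mice, rose from 7.41 ± 2.6 to 28.5 ± 12.4 CPM (log2 change 1.99 ± 0.29, adjusted p = 9.5e-06). The 3 lower ones were Tnfrsf19, from 80.1 ± 24.2 to 9.28 ± 4.98 CPM (log2 change -3.26 ± 0.35, adjusted p = 7.7e-07), the death domain receptor Tnfrsf21, from 40.6 ± 6.21 to 14.9 ± 6.72 CPM (log2 change -1.43 ± 0.24, adjusted p = 6.2e-05), and the neurotrophin receptor Ngfr, from 27.9 ± 11.3 to 4.02 ± 4.05 CPM (log2 change -2.94 ± 0.53, adjusted p = 0.00029).

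Extracellular ATP and adenosine genes were nearly all called, 9 of 20 higher and 9 lower (6 and 10 with totals, 7 and 9 with offsets). Entpd2, an ectoenzyme that removes ATP outside the cell, was at 783, 669.5, 552, 695 and 724 CPM in the untreated libraries. Entpd2 at day 1 was at 213, 199, 268, 176 and 231 CPM, with every day 1 library below (log2 change -1.65 ± 0.15, adjusted p = 2.3e-08). Adora2b, the low-affinity adenosine receptor, moved the opposite way, at 7.66, 11.7, 17.3, 14.4 and 19.1 CPM in the untreated libraries. Adora2b at day 1 was at 59.8, 65.4, 55.3, 81.2 and 61 CPM (log2 change 2.15 ± 0.20, adjusted p = 2e-08). The nucleoside transporter Slc29a1 fell from 171 ± 36.1 to 65.8 ± 16.5 CPM (log2 change -1.40 ± 0.17, adjusted p = 1.3e-06).

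Genes of cell death were higher in part. Among caspases, inhibitors of apoptosis and necroptosis genes 14 of 27 were higher and 3 lower. The counts were 16 and 2 with GC and length offsets, and 8 and 5 with totals. In this list 1 member is also an interferon-stimulated gene and 1 a p53 target in the lists set aside. Mlkl, which perforates the plasma membrane in necroptosis, was at 17.9, 17, 11.9, 17.8 and 12.3 CPM in the untreated libraries. Mlkl at day 1 was at 64.6, 65.4, 52.5, 86.6 and 60.4 CPM. Its day 1 values were all more than the highest untreated one (log2 change 2.11 ± 0.19, adjusted p = 2e-08). Ripk3, the kinase that activates Mlkl, was at 17.9, 20.2, 20.1, 27.5 and 27.7 CPM in the untreated libraries. Ripk3 at day 1 was at 77.2, 61.5, 60.1, 85.6 and 65.6 CPM (log2 change 1.59 ± 0.18, adjusted p = 3.3e-07). Ninj1, which ruptures the membrane of dying cells, rose from 57.9 ± 10.4 to 161 ± 26.2 CPM (log2 change 1.48 ± 0.16, adjusted p = 2.2e-07). Ripk1, the kinase upstream of Ripk3, fell from 24.9 ± 3.31 to 11.7 ± 5.06 CPM (log2 change -1.03 ± 0.22, adjusted p = 0.00061). Xiap, a caspase inhibitor, also fell (log2 change -0.98 ± 0.22, adjusted p = 0.0012), but not with GC and length offsets, where its log2 change was -0.17 and its adjusted p 0.49.

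BCL2 family genes were higher in 8 of 19 and lower in 2 (6 and 4 with totals), and 4 of the 19 are also p53 targets. Bcl2l11, the death-promoting BIM, was at 12.8, 10.1, 11.5, 5.37 and 6.38 CPM in the untreated libraries. Bcl2l11 at day 1 was at 23.6, 30.1, 43.2, 32.7 and 26.9 CPM (log2 change 1.85 ± 0.23, adjusted p = 1.8e-06). Mcl1, which protects cells from it, rose at the same time, from 157 ± 35.4 to 343 ± 70.1 CPM (log2 change 1.11 ± 0.17, adjusted p = 1.6e-05).

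Genes of the serpin family, which includes secreted protease inhibitors, were almost all called, 11 of 18 higher and 6 lower. Serpina3n, an acute-phase inhibitor of serine proteases, was at 128, 209, 214, 137 and 251 CPM in the untreated libraries. Serpina3n at day 1 was at 1723, 2083, 1439, 2346 and 1504 CPM. The lowest day 1 value was above the highest untreated one by a wide margin (log2 change 3.27 ± 0.20, adjusted p = 5.8e-11). Serpinf1, an inhibitor of blood vessel growth, fell from 3251 ± 222 to 1435 ± 115 CPM (log2 change -1.18 ± 0.13, adjusted p = 2.5e-07) and the thrombin inhibitor Serpine2 from 956 ± 213 to 405 ± 115 CPM (log2 change -1.24 ± 0.19, adjusted p = 1.6e-05). Lectins gave 6 of 13 higher and 3 lower, but 5 and 5 with totals, and 2 of the 13 are interferon-stimulated genes in the list set aside. Among the lectins 2 abundant ones fell, Clec3b (tetranectin) from 2256 to 3274 CPM untreated to 499 to 1219 CPM at day 1 (log2 change -1.65 ± 0.19, adjusted p = 3.5e-07) and the growth factor Clec11a from 119 to 212 CPM untreated to 38.1 to 72.7 CPM at day 1 (log2 change -1.73 ± 0.19, adjusted p = 3.1e-07).

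Iron and heme genes were higher in 12 of 27 and lower in 4. Slc39a14, an importer of zinc and of iron not bound to transferrin, was at 19.6, 31.5, 27.7, 25.2 and 28.5 CPM in the untreated libraries. Slc39a14 at day 1 was at 132, 99, 83.1, 129 and 102 CPM (log2 change 2.01 ± 0.17, adjusted p = 4.8e-09), and the ferrireductase Steap3 fell from 90.6 ± 16.1 to 47.2 ± 12.5 CPM (log2 change -0.91 ± 0.19, adjusted p = 0.00047). The metal-binding metallothioneins Mt1 and Mt2 belong to a list with 6 of 20 higher and 6 lower (5 and 12 with totals, 6 and 5 with offsets). Mt1 was at 2104, 3470, 3235, 2643 and 3703 CPM in the untreated libraries. Mt1 at day 1 was at 12781, 5629, 4719, 6439 and 6564 CPM, and replicate 1 was far above the other day 1 libraries (log2 change 1.25 ± 0.22, adjusted p = 0.00011). Mt2 had the same shape (log2 change 1.25 ± 0.24, adjusted p = 0.00027), and with offsets and without that replicate its log2 change was 0.45 (adjusted p = 0.054).

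Aldehyde dehydrogenase and retinoid genes were higher in 12 of 30 and lower in 5. Rarres2, a retinoid-responsive gene that encodes the chemoattractant chemerin, was at 1841, 1578, 1488, 1517 and 1769 CPM in the untreated libraries. Rarres2 at day 1 was at 3841, 4302, 3876, 4401 and 3339 CPM (log2 change 1.27 ± 0.14, adjusted p = 4.2e-07). Rdh10, which starts the making of retinoic acid from retinol, rose from 21.9 ± 6.57 to 84.3 ± 32.5 CPM (adjusted p = 3.2e-06), and Aldh1a3, which completes it, fell from 37.1 ± 12.1 to 11 ± 3.82 CPM (log2 change -1.69 ± 0.27, adjusted p = 3.7e-05). Kynurenine, nitric oxide and NAD genes were higher in 6 of 13 and lower in none.

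Lipid genes went in both directions. Sphingolipid genes were lower in 11 of 27 and higher in 4, though 6 and 5 with GC and length offsets, and the lysosomal ceramidase Asah1 fell from 98.2 ± 16.9 to 44.1 ± 15.4 CPM (log2 change -1.10 ± 0.20, adjusted p = 0.00012). ABC transporters were lower in 11 of 32 and higher in 5, with Abca8a at 522 ± 86.5 CPM untreated and 142 ± 54.1 CPM at day 1 (log2 change -1.86 ± 0.21, adjusted p = 4.1e-07). Enpp2 encodes autotaxin, the secreted enzyme that makes lysophosphatidic acid, and was at 717, 699.8, 635, 866 and 626 CPM in the untreated libraries. Enpp2 at day 1 was at 195, 221, 296, 163 and 337 CPM (log2 change -1.54 ± 0.17, adjusted p = 3.2e-07). Lpar1, a receptor for that lipid, fell with it from 120.1 ± 19.1 to 53.4 ± 14.8 CPM (log2 change -1.21 ± 0.17, adjusted p = 8.8e-06). Both are in a phospholipid list with 6 of 25 higher and 8 lower, at a median log2 change of 0.11, and 8 and 7 with offsets. Ptger3, a receptor for prostaglandin E2, fell from 34.6 ± 3.62 to 8.63 ± 4.07 CPM (log2 change -1.85 ± 0.22, adjusted p = 8.3e-07) in a list with 6 of 22 higher and 4 lower (6 and 8 with totals).

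Transcription factor families were mixed, and single members stood out. Of 29 nuclear receptors 7 were higher and 8 lower (5 and 5 with offsets). Nr3c1, the glucocorticoid receptor, was at 128, 94.5, 104, 115 and 112 CPM in the untreated libraries. Nr3c1 at day 1 was at 33.1, 48.4, 45.2, 39.1 and 40.7 CPM (log2 change -1.39 ± 0.14, adjusted p = 6.6e-08). The estrogen receptor Esr1 fell from 26.7 ± 5.88 to 10.1 ± 5.53 CPM (log2 change -1.56 ± 0.30, adjusted p = 0.00023), while Nr4a1, an orphan receptor induced within hours by many stimuli, rose from 947 ± 217 to 2627 ± 680.1 CPM (log2 change 1.47 ± 0.19, adjusted p = 2.7e-06). Nfia and Nfib of the nuclear factor I family fell, from 60.4 ± 5.87 to 18.8 ± 9.48 CPM (log2 change -1.57 ± 0.21, adjusted p = 4.2e-06) and from 216 ± 33.4 to 86.8 ± 24.5 CPM (log2 change -1.30 ± 0.19, adjusted p = 8.8e-06), as did Prrx1, a homeobox factor of mesenchyme (log2 change -1.30 ± 0.19, adjusted p = 9e-06), and Foxo1 (log2 change -1.24 ± 0.17, adjusted p = 4.1e-06).

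Cebpb, a regulator of inflammatory genes, was at 365, 412, 286, 258 and 405 CPM in the untreated libraries. Cebpb at day 1 was at 2890, 1058, 1380, 1551 and 1142 CPM. Replicate 1 was the highest of the day 1 libraries, and all 5 lay above the untreated ones (log2 change 2.21 ± 0.24, adjusted p = 2.5e-07). Creb3l1, a factor held in the endoplasmic reticulum membrane that is cleaved under stress, rose from 176 ± 20.1 to 603 ± 120.3 CPM (log2 change 1.77 ± 0.16, adjusted p = 2.3e-08). Nfil3, which competes with clock factors for DNA, rose from 23.8 ± 4.38 to 78 ± 21.4 CPM (log2 change 1.71 ± 0.18, adjusted p = 1.8e-07), in a clock gene list with 6 of 19 higher and 4 lower (4 and 7 with totals). Nr1d1 and Dbp, output genes of the clock with high levels, were not called, Nr1d1 at 384 ± 64 CPM untreated and 383 ± 86.6 CPM at day 1 and Dbp at 286 ± 60.6 CPM untreated and 265 ± 55.1 CPM at day 1. KLF and SP factors were higher in 1 of 15 and lower in 5, and homeobox and patterning factors higher in 6 of 54 and lower in 13.

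In the chromatin remodeller, histone lysine and splicing factor lists the direction with more called members depended on the correction. SWI/SNF and CHD remodellers had 3 of 23 higher and 4 lower, histone lysine demethylases and methyltransferases 4 of 40 and 6, and splicing factors 10 of 47 and 9, all below the background of 23.1% each way. With GC and length offsets the counts were 5 and 0, 12 and 2, and 12 and 2, and with totals 2 and 8, 3 and 11, and 5 and 15. Of 10 DNA methylation and TET genes 2 were higher and none lower (2 and 1 with totals, 3 and 0 with offsets). Mbd1, a reader of methylated DNA in that list, was at 44.2, 48.9, 49.3, 25.9 and 39.2 CPM in the untreated libraries. Mbd1 at day 1 was at 134, 148, 155, 138 and 169 CPM (log2 change 1.85 ± 0.18, adjusted p = 6.8e-08), and Dot1l, which methylates histone H3, rose from 47.2 ± 9.77 to 145 ± 41.7 CPM (log2 change 1.60 ± 0.24, adjusted p = 1.5e-05). Setd7, another lysine methyltransferase, fell from 65.5 ± 11.9 to 27.3 ± 7.94 CPM (log2 change -1.20 ± 0.17, adjusted p = 1e-05). Of 25 long non-coding RNAs 10 were higher and 3 lower. H19, an imprinted RNA, was at 769.8, 935, 727, 459 and 838 CPM in the untreated libraries. H19 at day 1 was at 116, 113, 132, 71.7 and 155 CPM, below the untreated range in all 5 (log2 change -2.67 ± 0.23, adjusted p = 1e-08), and the snoRNA host Snhg15 rose from 33 ± 6.81 to 120.2 ± 20.2 CPM (log2 change 1.85 ± 0.16, adjusted p = 7.6e-09).

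Cytoskeletal genes changed in composition. Tubulins, the subunits of microtubules, were higher in 8 of 14 and lower in 1 (6 and 3 with offsets). Tubb3, best known from neurons, was at 1.7, 3.64, 1.8, 3.36 and 4.26 CPM in the untreated libraries. Tubb3 at day 1 was at 33.1, 22.2, 21, 27.7 and 36.1 CPM (log2 change 3.14 ± 0.27, adjusted p = 9.1e-09). Tubb2a rose from 235 ± 26.9 to 833 ± 281 CPM (log2 change 1.82 ± 0.18, adjusted p = 6.3e-08) and Tuba4a from 9.05 ± 2.79 to 71.1 ± 31.4 CPM (log2 change 3.02 ± 0.32, adjusted p = 4.7e-07), whereas Tuba1a, at higher counts than either, fell from 1594 ± 156 to 1026 ± 87.7 CPM (log2 change -0.64 ± 0.13, adjusted p = 0.00043). Tubulin genes are similar in sequence, so reads shared between them leave the split uncertain. The motor Myh10, a non-muscle myosin, fell from 53.7 ± 5.29 to 12.7 ± 4.62 CPM (log2 change -1.98 ± 0.18, adjusted p = 1.5e-08), and Rnd1, which loosens actin fibres, rose from 151 ± 68.8 to 639 ± 159 CPM (log2 change 2.07 ± 0.28, adjusted p = 7.5e-06). Of the tetraspanins, membrane organizers with 5 of 19 higher and 6 lower, Tspan18 (log2 change -1.66 ± 0.22, adjusted p = 2.7e-06) and Cd9 (log2 change -1.12 ± 0.14, adjusted p = 1.9e-06) fell. Notch3, a receptor known from mural cells, was at 42.5, 24.6, 29.1, 36.6 and 23.4 CPM in the untreated libraries. Notch3 at day 1 was at 118, 109.5, 125, 109.8 and 191 CPM (log2 change 2.08 ± 0.19, adjusted p = 2.3e-08), in a Notch list with 6 of 21 higher and 4 lower (6 and 7 with totals).

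Counts alone are given for the remaining families. Potassium channels and claudin and tight junction genes among them had at least 40% of members called one way. Calcium handling genes were lower in 14 of 41 and higher in 3, potassium channels in 5 of 12 and 2, and kinesins, dyneins and dynactins in 10 of 29 and 4. Cullins and BTB-Kelch adaptors, which choose proteins for ubiquitin tagging, were lower in 27 of 81 and higher in 14, while ubiquitin-specific proteases, which remove the tag, were lower in 4 of 41 and higher in 7, but lower in 9 and higher in 2 with totals and lower in 1 and higher in 14 with offsets. Cyclic AMP genes were lower in 9 of 38 and higher in 4 (9 and 9 with offsets), and septins and myosins lower in 12 of 32 and higher in 8. Translation initiation and elongation factors were higher in 14 of 60 and lower in 10, DEAD and DEAH box helicases in 11 of 43 and 5, nuclear pore proteins in 5 of 20 and 0, and claudin and tight junction genes in 8 of 17 and 5, all 4 with as many or more lower than higher when scaled to totals. Annexins and S100 proteins, with 9 tested members each, had 2 higher in both families and 2 and 1 lower. With totals the annexins had 1 higher and 4 lower and the S100 proteins 2 and 2, and with offsets both had 1 and 2.

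**Figure D4:**
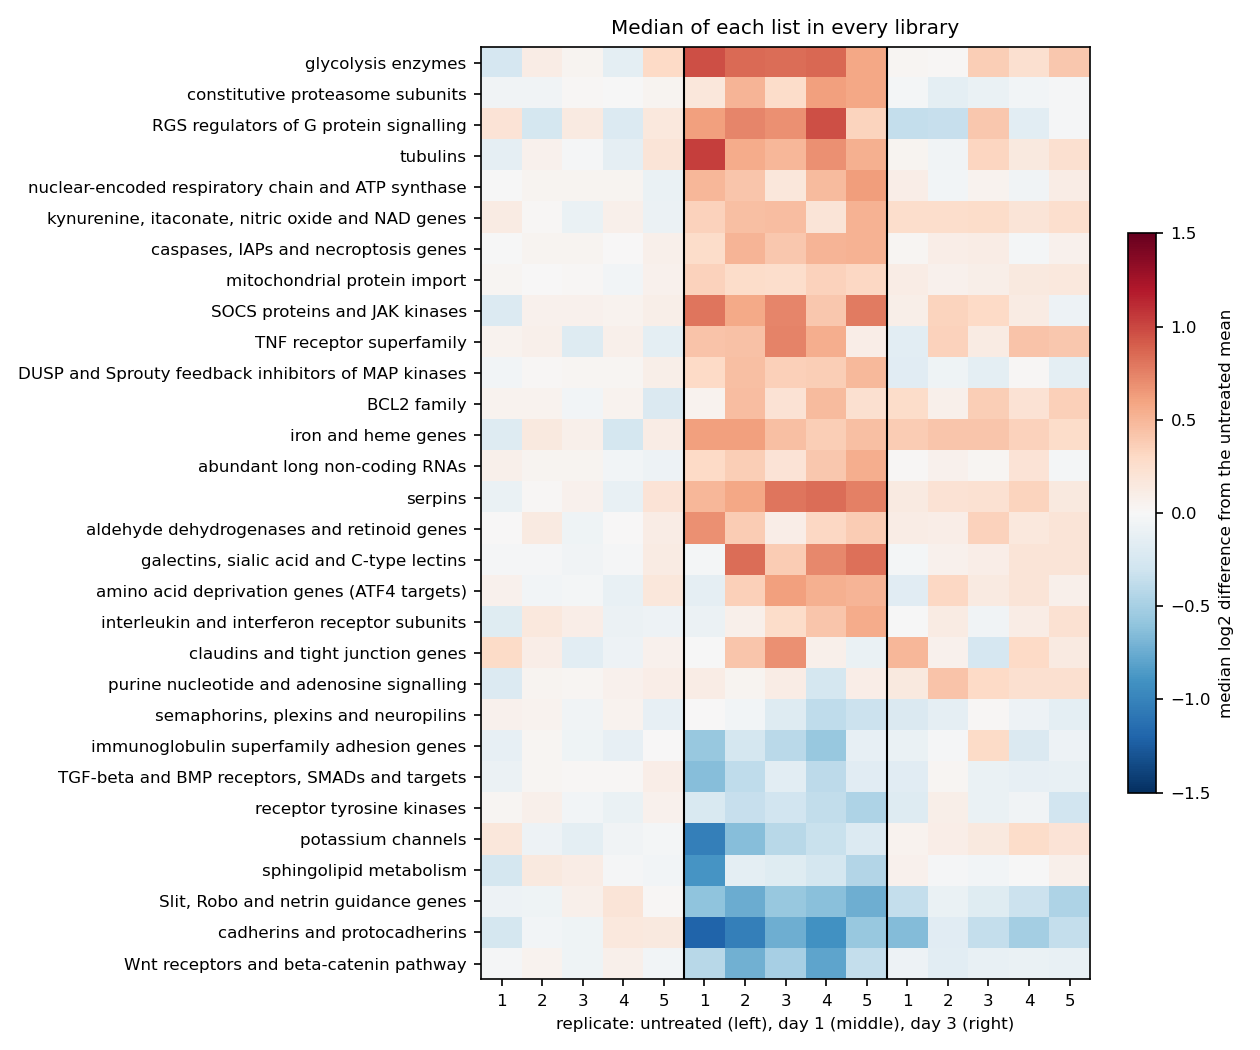
Median log2 difference from the untreated mean, on log2(CPM + 1), of the 30 lists of the bar plot in each of the 15 libraries; red is higher and blue lower. The Wnt, cadherin and Slit lists are blue in the day 1 libraries and the glycolysis list is red.

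Genes with the largest changes outside the interferon, p53 and matrix lists were ranked over all genes. Gpbar1, a receptor for bile acids, was at 0, 0.404, 0.36, 0 and 0.426 CPM in the untreated libraries. Gpbar1 at day 1 was at 15.8, 20.5, 31.1, 31.2 and 55.8 CPM. The 5 untreated libraries held 3 UMIs of it in all and the day 1 libraries 282. Macrophage and mesothelial markers also rose at day 1, and their part in the Gpbar1 values was not tested. Chil1, a chitinase-like secreted protein, rose from 7.48 ± 8.13 to 305 ± 154 CPM (log2 change 5.42 ± 0.68, adjusted p = 2.4e-05), the protease inhibitors Serpinb2 from 1.78 ± 1.42 to 50.2 ± 33.5 CPM (log2 change 5.04 ± 0.67, adjusted p = 2.5e-05) and Slpi from 19.9 ± 16.3 to 435 ± 264 CPM (log2 change 4.58 ± 0.96, adjusted p = 0.0019). Slpi is also made by epithelia, and the mesothelial markers moved in the same libraries; their part was not tested.

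Among the largest falls was Ackr4, a receptor that removes chemokines, at 149, 182, 192, 145 and 235 CPM in the untreated libraries. Ackr4 at day 1 was at 18.9, 17.4, 29.9, 10.4 and 31.5 CPM (log2 change -3.05 ± 0.23, adjusted p = 1.3e-09). Angptl1, an angiopoietin-like secreted protein, was at 238, 208, 133, 157 and 237 CPM in the untreated libraries. Angptl1 at day 1 was at 12.6, 10.5, 19, 11.9 and 22.3 CPM (log2 change -3.65 ± 0.30, adjusted p = 1.8e-08). The carboxypeptidase relative Cpxm2 fell from 275 ± 80.4 to 26.2 ± 14.6 CPM (log2 change -3.54 ± 0.33, adjusted p = 1.3e-07) and Marcks, which binds actin and the plasma membrane, from 182 ± 31.5 to 25.3 ± 12.6 CPM (log2 change -2.87 ± 0.23, adjusted p = 2.6e-09). Mrgprg, an orphan G protein-coupled receptor, was at 34.9, 31.1, 40.6, 103 and 78.7 CPM in the untreated libraries. Mrgprg at day 1 was at 11, 1.75, 2.83, 0.99 and 4.59 CPM, a fall without overlap (log2 change -4.21 ± 0.67, adjusted p = 0.00016).

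Fibroblasts of day 3 show how far these levels had moved by then. The test of day 3 against day 1 called 1644 genes higher (16.1%) and 1691 lower (16.6%). It uses the same 5 day 1 libraries as the comparison above, so only its own values are given. The median log2 change from day 1 to day 3 was -0.55 for the proteasome, -0.65 for glycolysis, -0.43 for the respiratory chain, 0.45 for the Wnt list, 0.46 for the Hedgehog list and 0.33 for cadherins, beside 0.01 for all genes. Other lists described above moved little. Their medians were 0.00 for kynurenine, nitric oxide and NAD genes, -0.11 for iron and heme genes, -0.11 for TNF receptors and 0.03 for semaphorins.

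Several genes at day 3 were close to their untreated means. Psmb6 averaged 215 ± 16.6 CPM at day 3, Atp5g1 130.2 ± 17.8, Entpd2 760.3 ± 109 and Mlkl 17.8 ± 4.06 CPM, each called against day 1 (log2 change -1.04 ± 0.13, adjusted p = 1.7e-06, log2 change -1.19 ± 0.14, adjusted p = 1.3e-06, log2 change 1.81 ± 0.15, adjusted p = 1.6e-08 and log2 change -1.87 ± 0.18, adjusted p = 1.1e-07). Gpbar1 was again at 4 UMIs in all 5 libraries. Others had not changed beyond the test from day 1 to day 3. Bmpr2 averaged 16.1 ± 1.58 CPM at day 3 (log2 change 0.34 ± 0.22, adjusted p = 0.25), Rgs16 382 ± 86.7 CPM (log2 change 0.06 ± 0.20, adjusted p = 0.84), Sema4a 50.5 ± 13.8 CPM (log2 change 0.13 ± 0.25, adjusted p = 0.73) and Esr1 10.4 ± 2.42 CPM (log2 change 0.18 ± 0.32, adjusted p = 0.69). Some were past their untreated mean: Mrgprg averaged 123 ± 58.2 CPM at day 3 against 57.8 CPM untreated (log2 change 5.28 ± 0.65, adjusted p = 3e-05), and Cox7a2l 439 ± 18.7 CPM against 265 CPM (log2 change 1.23 ± 0.15, adjusted p = 1.5e-06). Whether these day 3 levels differ from untreated was not tested here.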

How the data were processed

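Per the labels' protocols, sorted cells gave MARS-seq libraries, which tag mRNA 3′ ends with UMIs. Tools listed without role or order in the submitters' processing notes are STAR 2.5.2b, HTSeq, DESeq2, cutadapt and bcl2fastq, with the mm10 build. The authors deposited 1 table of 12763 genes with raw UMI counts, which were used, and 30 columns of normalized or regularized per-sample values, which were not. Library totals were 740169 to 3750214 UMIs and set the precision of low genes.

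The filter filterByExpr kept 10207 genes. TMM scaling and 1 edgeR 4.0.16 quasi-likelihood model with robust dispersion (R 4.3.3) were applied to the 15 libraries by group, with Benjamini-Hochberg adjustment over all genes tested. SE is the log2 change divided by the square root of F. The test was also run on simulated counts with known changes in far fewer genes than were called here. That run does not bear on how the scaling behaves in these data. Alternatives were DESeq2 1.42.0, limma 3.58.1 voom with quality weights, RLE or total scaling, other filters, the compared groups only, a replicate block, glmTreat at 1.5-fold and each library left out. Offsets for GC content and length (longest GENCODE vM21 transcript, loess), also without day 1 replicate 1, were chosen once the data had been seen.

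The groups, lists and members were chosen with earlier results of these data known. Named genes are, per list, up to 4 called members of smallest p whose groups do not overlap and of which 1 reaches a mean of 20 CPM, up to 2 in the other direction, up to 2 members not called with the highest level, and the 15 largest rises and 15 largest falls. Lists held at least 5 tested members. Some genes and lists that met these rules are not reported here. Promoter windows are those of RefSeq for GRCm38.p6, and the 9 motifs searched on both strands in 6 lists were the hypoxia site core ACGTG, the E-box CACGTG, the antioxidant core TGACNNNGC, the cyclic AMP site TGACGTCA, the CCAAT box, the SP1 box GGGCGG, the ATF4 site TGATGCAA and, by name, the NF-kB and NRF1 sites. Motifs may overlap, and CACGTG holds ACGTG. Tables were made in Python 3.11.15 with pandas 2.3.3, numpy 2.4.6 and matplotlib 3.10.9.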

Additional observations from a re-analysis of the deposited data

Results flagged for a closer look

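Single libraries that stood far from the other 4 of their group (Dixon's test at 95%) were found in 32 of 318 groups of 5 examined, 28 of them genes; chance alone flags about 1 group in 20. Day 1 replicate 1 gave 11 of them. Its second principal component was 65.97, against -27.3 to -23.98 in the others, and it had 11180 genes detected, the fewest of the day 1 libraries. In it Mt1 was at 12781 CPM, Mt2 at 11789, Cebpb at 2890, Nr1d1 at 532 and Sdc3 at 378 CPM, each the highest of its group, and so was Pias4 at 80.3 CPM. Ctnnb1 at 70.9, Smad5 at 15.8 and Ptger3 at 1.57 CPM were the lowest.

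In day 1 replicate 3 Ntn1 was highest at 37.9 CPM and Clec11a at 72.7 CPM, and Ndufb7 was lowest at 237 CPM. In day 1 replicate 5 Notch3 reached 191 CPM, Cd9 274 CPM and Marcks 47.2 CPM, all highest. Nfil3 was highest in day 1 replicate 4 at 116 CPM and Foxo1 in day 1 replicate 2 at 27.5 CPM.

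Untreated replicate 1 was the shallowest untreated library, with 12015 genes detected, the fewest of its group, and 24.9% of its UMIs in the top 50 genes, the highest share. Cox5b at 367, Atf5 at 804 and Tspan18 at 78.3 CPM were highest there, and Ssr4 at 217, Fzd2 at 42.5 and Acvrl1 at 58.7 CPM were lowest. Among the other untreated libraries, Sema3c at 291 CPM and Chst1 at 87.4 CPM were highest in replicate 3, Nrp2 at 75.2 CPM was highest and Ninj1 at 39.97 CPM lowest in replicate 4, and Dusp10 at 14.5 CPM was highest in replicate 2. Without the library concerned, all of the called genes among these kept their direction and their call.

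The time points differed from each other, by the test of day 3 against day 1 in the same model, in 1644 genes that were higher and 1691 that were lower at day 3.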

How the results depend on the processing

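Scaling to library totals gave 1498 genes higher and 3652 lower at day 1, and asking for a change beyond 1.5-fold with glmTreat gave 1049 and 1006, with 445 higher and 520 lower for day 3 against day 1. The other alternatives kept each of these 4 counts within 1.5 times. Leaving out 1 library at a time gave 2128 to 2445 higher and 2110 to 2383 lower genes at day 1, and 1401 to 1732 and 1427 to 1815 for day 3 against day 1. With the replicate number as a block the counts were 2246 and 2265 at day 1 and 1544 and 1558 at day 3. Deviations of same-numbered untreated and day 1 libraries correlated weakly (r from -0.204 to 0.159). The labels state no pairing, and these values cannot exclude one. Of 146 called genes named in the text, 134 kept their direction and their call in all alternatives run, and glmTreat lost the most, 10. They were picked for small p or large changes and for groups without overlap. Their share therefore does not carry over to all called genes. All genes whose direction turned were ones not called: Psmd1 at -0.11 with totals; Atp5b at -0.25 with totals, -0.01 with no filter, -0.10 and -0.08 with GC and length offsets, and -0.03 to 0.07 without single libraries; Egfr at -0.25 with totals, -0.00 with no filter and -0.10 to 0.13 without single libraries; and Nr1d1 at 0.01 with RLE scaling, 0.00 with DESeq2 and -0.14 to 0.04 without single libraries. The causes were not tested. Replicate 1 of day 1 holds 740169 UMIs, so genes near 20 CPM rest on few counts there.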
